A study of Mus musculus with 2 samples.

Results

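The cytosolic ribosomal protein genes were taken as every listed gene whose name begins with Rpl or Rps followed by a digit, together with Rpsa, Rplp0, Rplp1 and Rplp2. They numbered 75 of the 298 genes listed for the H3K36M tongue section and 81 of the 865 genes listed for the WT section, and all 75 were also among the 81. The 75 genes hold 44 of the large ribosomal subunit and 31 of the small subunit. Both groups were mice of an LSL-H3K36M line, in which a transgene for a mutant histone H3 with methionine in place of lysine 36 stays silent until Cre removes a stop cassette, and both were treated with 4NQO, a carcinogen of the oral epithelium. The H3K36M mouse was Krt14-Cre(+), so Cre came from the promoter of a basal keratin and the mutant histone was limited to tissue with a history of Krt14 expression. The WT mouse was Krt14-Cre(-) and carried the same silent transgene. Frozen tongue sections were laid on arrays of barcoded spots, and each captured transcript was counted once through its unique molecular identifier (UMI). With 1 section per genotype there is no spread between animals and no test between genotypes, and the transcript of the transgene was not analysed here.

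Each ribosome has a large subunit, which joins amino acids, and a small subunit, which reads the messenger RNA, and most of their proteins are needed in 1 copy per ribosome. Their genes are scattered over the genome, are among the most transcribed in growing cells, and many of their transcripts begin with a run of pyrimidines, the 5′ terminal oligopyrimidine tract, through which mTORC1 signalling controls their translation. In stratified epithelium such as that of the tongue, ribosomal protein transcripts are usually abundant in basal and growing cells and less so in cornified layers.

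The run of pyrimidines is shown because it is the sequence feature these genes are known for. It is shown also because members with and without it at the annotated start sit at both ends of the results. Whether a run is marked depends on that start base, so an unmarked member is not thereby shown to lack one. Each line gives 10 bases before the annotated start of the gene and 20 bases from it, 5′ to 3′ on the gene's own strand, from RefSeq on build GRCm38.p6, and capitals mark an unbroken run of C and T that opens with C at the start itself. Rps6, the small subunit protein phosphorylated by S6 kinase, is at chr4:86857348-86857377 on the minus strand, Rpl35 at chr2:39005112-39005141 on the minus strand, Rps15a at chr7:118116128-118116157 on the minus strand, and Rps27 at chr3:90213629-90213658 on the minus strand. Rpl39, whose protein lines the peptide exit tunnel, is at chrX:37085203-37085232 on the minus strand, Rpl41, whose protein is among the smallest known in the mouse, at chr10:128549149-128549178 on the minus strand, Rpl4 at chr9:64173377-64173406 on the plus strand, and Rpsa at chr9:120127756-120127785 on the plus strand.
Rps6: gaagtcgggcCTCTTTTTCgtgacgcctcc
Rpl35: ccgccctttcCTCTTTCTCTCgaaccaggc
Rps15a: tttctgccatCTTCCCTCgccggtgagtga
Rps27: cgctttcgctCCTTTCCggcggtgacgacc
Rpl39: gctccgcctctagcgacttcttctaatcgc
Rpl41: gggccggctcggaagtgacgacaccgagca
Rpl4: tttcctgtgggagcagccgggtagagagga
Rpsa: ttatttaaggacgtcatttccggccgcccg

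RefSeq promoters of this build were at hand for 61 of the 81 members. A C at the annotated start followed by at least 4 further C or T was found in 14 of the 61 (23.0%), against 813 of 27025 genes in the whole promoter table (3.01%). Where the C was allowed within 3 bases of the start, 26 members (42.6%) and 13.5% of all genes had such a run. The letters CCGGAAG, the core of ETS factor motifs, stood on either strand of the 300-base promoter in 25 members (41.0%) and in 9.93% of all genes. TATAAA in the 50 bases before the start was found in 1 member (1.64%) and in 3.15% of all genes. By the authors' deposited tables, members with the run at the start had a median log2 fold change in WT cluster 2 of 0.84 (n = 14), against 0.83 for those without it (n = 47), and in H3K36M cluster 2 of 0.55 (n = 13) against 0.50 (n = 42). These medians lay close together, while the median log2 ratio of section levels, H3K36M over WT, was -0.13 with the run (n = 13) and 0.07 without it (n = 42). The 81 genes lay on 19 chromosomes, with 14 on chromosome 7 and 8 on chromosome 9. Named pseudogenes existed for 59 of them, and the sources used here do not say how reads were shared with such copies, so the level of a single member is uncertain to that degree.

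The deposited metrics counted 252 spots under tissue and 29810232 reads in the H3K36M section, and 364 spots and 37219042 reads in the WT section. The libraries stood apart in quality, with 6.93% of reads in spots under tissue and a median of 596.5 genes per spot in the H3K36M section, against 36.2% and 1919.5 in the WT section. The part of this gap in any difference between the sections was not tested. From the deposited cluster averages, 570807 UMIs were recovered over the 4 clusters of the H3K36M section (17291 to 306551 per cluster) and 2283314 over the 3 clusters of the WT section (72775 to 1354340 per cluster). A level is the number of a gene's UMIs among 10000 UMIs of its cluster or section, and intervals in parentheses are exact 95% intervals that cover counting error only. A gene was listed where its average reached about 1 in some cluster, which corresponds to 7.24 UMIs per 10000 in the H3K36M section and to 1.99 in the WT section, so every member described had passed a limit on low values. Cluster numbers were given to each section separately, and a number shared by the sections does not make 2 clusters the same tissue. Fewer cells of a type in a spot and less RNA per cell cannot be told apart.

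Ribosomal protein transcripts took almost the same share of all UMIs in both sections. The 75 genes held 13.4% of the UMIs of the H3K36M section (13.3 to 13.5) and 13.3% of those of the WT section (13.3 to 13.3). With the UMIs of genes in both tables as the base, the shares were 29.8% and 25.6%, so the near equality depended on the base. It also rests on the recovered UMI totals. The median UMIs per spot that these imply for the H3K36M section, 1380.5, differs from the deposited 763.5. Another median would move every level of that section by the same factor, and none was tried. Within each section the share of all UMIs differed by cluster. It was 10.9% (10.4 to 11.4), 15.7% (15.5 to 15.8), 11.2% (11.03 to 11.31) and 9.55% (9.30 to 9.80) in H3K36M clusters 1 to 4, and 8.91% (8.85 to 8.97), 16.1% (16.1 to 16.2) and 12.1% (11.8 to 12.3) in WT clusters 1 to 3. As a share of all UMIs, cluster 2 was the richest cluster of each section, and its interval lay above those of the other clusters of its section. With the UMIs of genes in both tables as the base, H3K36M cluster 2 had 32.9%, close to the 32.4% of H3K36M cluster 1. The share of all UMIs in the H3K36M section rested on cluster 2, which holds most of that section's UMIs. Without it the share was 10.8%.

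**Figure D1:**
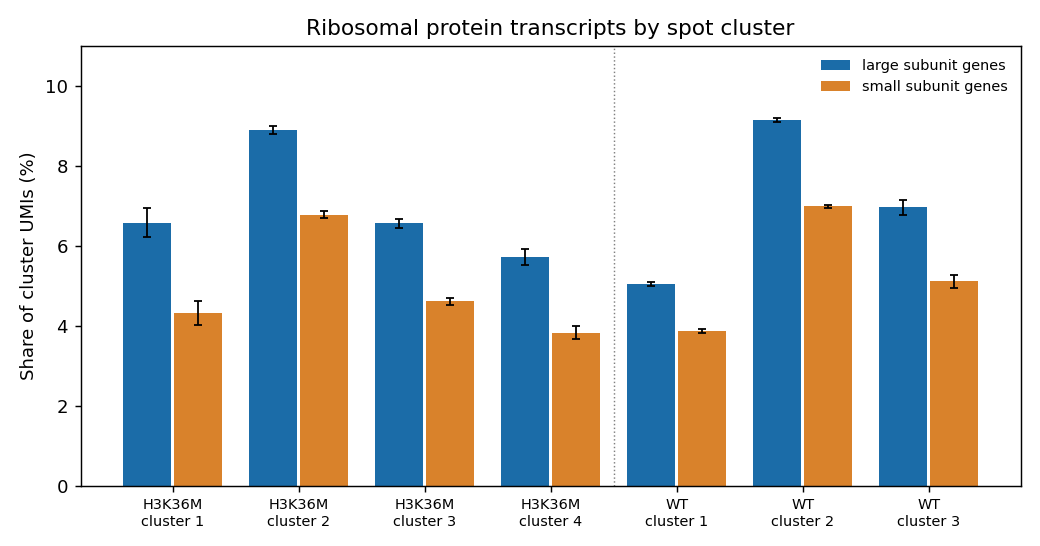
Share of each cluster's UMIs (percent, axis from 0) that came from the 44 large subunit genes and the 31 small subunit genes listed in both tables. Bars are values of 1 section per genotype and error bars are exact 95% binomial intervals for counting error. Cluster 2 stands highest for both subunits in both sections, and the large subunit bar is the taller one in every cluster.

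Shares of marker lists moved with these clusters. Mitochondrially encoded transcripts made up 1.54%, 6.09%, 1.38% and 0.609% of the UMIs of H3K36M clusters 1 to 4 and 2.03%, 1.93% and 3.19% of those of WT clusters 1 to 3. H3K36M cluster 2 was thus high in both mitochondrial and ribosomal protein transcripts, while WT cluster 2 had the lowest mitochondrial share of its section. Listed markers of differentiated squamous cells (13 of 17 in the H3K36M table, 15 of 17 in the WT table) summed to 3.12%, 5.66%, 9.45% and 1.58% in H3K36M clusters 1 to 4 and to 10.1%, 6.07% and 8.32% in WT clusters 1 to 3. WT cluster 1, the poorest in ribosomal protein transcripts, was the richest in these markers, whereas H3K36M cluster 4, the poorest of its section, had the fewest. With the UMIs of genes in both tables as the base, cluster 3 was the poorest instead, at 24.3% against 30.6% in cluster 4. Basal keratinocyte markers (3 of 8 and 7 of 8 listed) summed to 0.821% to 1.45% in the H3K36M clusters and to 1.03% to 1.45% in the WT clusters, highest in H3K36M cluster 4 and WT cluster 2. In H3K36M cluster 4 the authors' deposited table gives log2 fold changes of 1.22 for Krt14, 0.03 for Krt5 and -0.41 for Krt15, so the high sum rested on Krt14. Skeletal muscle markers (10 of 13 and 11 of 13 listed) summed to 1.54%, 0.833%, 0.366% and 0.453% in H3K36M clusters 1 to 4. In WT clusters 1 to 3 these markers summed to 0.260%, 0.193% and 0.588%. They were thus highest in H3K36M cluster 1 and WT cluster 3, with H3K36M cluster 2 next in its section. Markers of ductal epithelium (3 of 5 and 1 of 5 listed) were at most 0.322%, in H3K36M cluster 4. The part of these lists in the ribosomal protein shares was not tested.

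Rplp1 led both sections. A protein of the stalk that recruits elongation factors, it had 38.3 UMIs per 10000 (36.8 to 40.0) in the H3K36M section and 42.1 (41.3 to 43.0) in the WT section. Next in the H3K36M section came Rpl13a at 30.2, Rps12 at 29.4 and Rpl13 at 28.4 UMIs per 10000, and next in the WT section Rpl41 at 35.98, Rps12 at 33.4 and Rps20 at 31.5. The median member had 16.9 UMIs per 10000 in the H3K36M section and 15.2 in the WT section, and across the 75 genes the levels of the sections had a Spearman correlation of 0.86, given as a description over genes that share 2 libraries. The other proteins of the stalk were lower than Rplp1. Rplp0, its base, had 23.4 UMIs per 10000 in the H3K36M section and 19.0 in the WT section, and Rplp2, the partner of Rplp1, had 13.3 and 14.6. One UMI stands for 1 captured molecule, so these levels were not divided by length.

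In H3K36M cluster 2, most ribosomal protein genes were higher than in the rest of the section. By the authors' deposited table, 55 of the 75 were higher at a deposited p under 0.05 and 0 were lower, while 33.9% of all 298 listed genes were called higher and 30.5% lower. The higher calls covered 27 of the 44 large subunit genes and 28 of the 31 small subunit genes. Medians of the deposited log2 fold change (cluster over all other clustered spots) were 0.48 for large and 0.58 for small subunit genes in the authors' deposited table, against -0.27 for the other listed genes. The clusters were drawn from the same counts, and spots of 1 section are not replicates, so these calls describe the section and carry no test of tissue or genotype. The sources used here do not say whether the deposited p-values are adjusted.

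The members that differed most in H3K36M cluster 2 encode very short proteins. Rpl39 had 30.3 UMIs per 10000 (28.4 to 32.3) in cluster 2, against 8.68 in cluster 1, 12.5 in cluster 3 and 7.17 in cluster 4. Rps29, a small zinc-binding protein of the small subunit, had 30.9 in cluster 2, against 6.36, 13.1 and 8.11 in clusters 1, 3 and 4. Rpl41 had 30.5 in cluster 2, against 8.68, 15.6 and 14.1 in clusters 1, 3 and 4. For these 3 genes cluster 2 lay well clear of the other clusters of the section. The authors' deposited table gives them log2 fold changes in cluster 2 of 1.43, 1.41 and 1.04, and gives 1.05 for Rps27, a zinc-binding protein of the small subunit. At the other end were larger proteins. Rpl8, near the peptidyl transferase centre, had 17.6 UMIs per 10000 in cluster 2, against 20.8, 18.2 and 18.5 in clusters 1, 3 and 4, with overlapping intervals. Rps9 and Rpl4, another protein of the exit tunnel, followed, for which the authors' deposited table gives 0.03 and 0.10 and no call.

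Most members had log2 fold changes below 0 in H3K36M clusters 3 and 4, where each cluster was set against all others, cluster 2 included. In cluster 3, 38 of the 75 members were lower and 0 higher at a deposited p under 0.05 in the authors' deposited table, where 34.6% of all listed genes were called lower and 23.5% higher. The lower calls took 21 large and 17 small subunit genes. Rpl39 (-1.06), Rps29 (-1.02), Rps27 (-0.82) and Rps23 (-0.81), the last of these a protein of the decoding centre, had the lowest log2 fold changes of the authors' deposited table there. In cluster 4, 30 members were lower and 0 higher in the authors' deposited table, with 36.2% of all listed genes called lower and 18.5% higher. The members' share was close to that of all genes there, and medians were -0.61 for large and -0.62 for small subunit genes in the authors' deposited table, against -0.33 for other listed genes. Rpl39 (-1.67), Rps29 (-1.53), Rps28 (-1.52) and Rps21 (-1.36) were again the lowest in the authors' deposited table for cluster 4. Rpl22 (0.26), Rpl5 (0.24), Rpl23 (0.20) and Rps9 (0.17) had the highest values there, none of them called.

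H3K36M cluster 1 was the smallest cluster, and few members could be called in it. The authors' deposited table calls Rps29 (log2 fold change -1.80, 11 UMIs in the cluster) and Rpl41 (-1.47, 15 UMIs) lower and none higher, 2 of 75 members, where 6.38% of all listed genes were called lower and 4.36% higher. Rps27 had the lowest log2 fold change of the authors' deposited table, -1.96 on 5 UMIs, with a deposited p of 0.051, and Rps25 (-1.45) was not called either. Only 17291 UMIs stood behind this cluster, which limits what could be called in it. Over all clusters of the H3K36M section, the level of 65 of the 75 members was highest in cluster 2, and the lowest level fell in cluster 4 for 42 members, in cluster 1 for 22 and in cluster 3 for 10. The exception with its lowest level in cluster 2 was Rpl8.

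**Figure D2:**
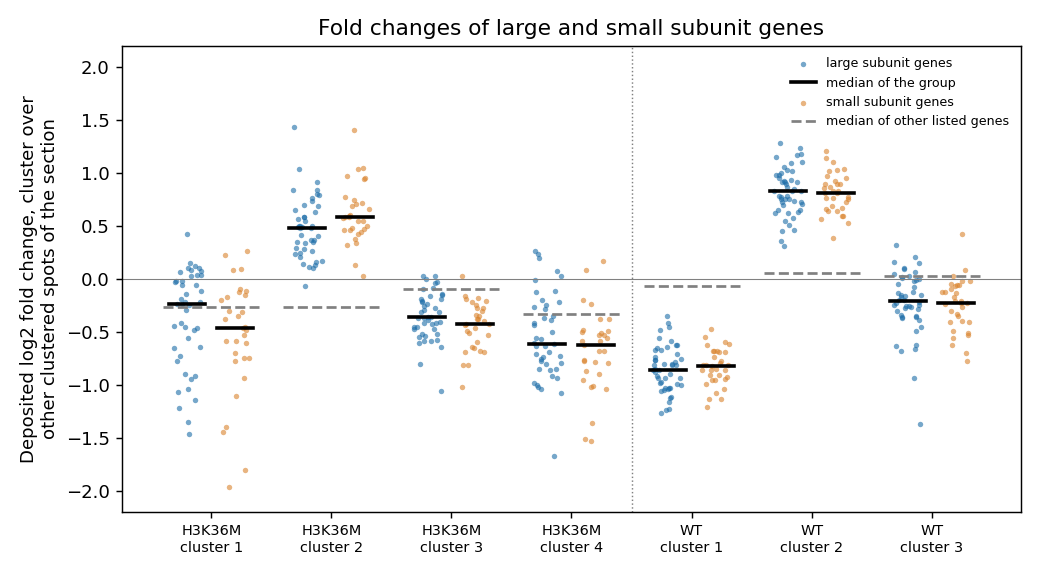
Deposited log2 fold change of each ribosomal protein gene, cluster over all other clustered spots of its section, with large and small subunit genes side by side. Points are genes, black lines are medians of each subunit and dashed lines are medians of the other listed genes. Members lie above the dashed line in cluster 2 of both sections and below it in WT cluster 1, with medians of -0.86 and -0.82 there.

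In the WT section the contrast between clusters 1 and 2 ran through nearly every member. In WT cluster 2, 80 of 81 members were higher and 0 lower at a deposited p under 0.05 in the authors' deposited table, where 43% of all 865 listed genes were called higher and 34.6% lower. The remaining gene was Rps27rt, a retrogene copy of Rps27, to which the authors' deposited table gives 0.38 on 246 UMIs. In WT cluster 1 all 81 members were lower in the authors' deposited table, where 43.7% of all listed genes were called lower and 33.2% higher. Medians in the authors' deposited table were 0.83 for large and 0.81 for small subunit genes in cluster 2, and -0.86 and -0.82 in cluster 1. In WT cluster 3, which held the fewest UMIs, Rpl10 (-1.37, 15 UMIs) was called lower and no member higher in the authors' deposited table, 1 of 81, where 1.5% of all listed genes were called lower and 3.93% higher. The level of 77 of 81 members was highest in WT cluster 2, and that of 78 was lowest in WT cluster 1.

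The highest fold changes in WT cluster 2 were those of Rpl35, Rpl5, Rps15a and Rpl21. Rpl35, a protein at the mouth of the exit tunnel, had 12.8 UMIs per 10000 in WT cluster 2, against 5.26 in cluster 1 and 5.36 in cluster 3. Rpl5, which carries 5S ribosomal RNA into the large subunit, had 29.8 in cluster 2, against 12.2 and 18.8 in clusters 1 and 3. Rps15a, of the small subunit, had 30.6 in cluster 2, against 12.95 and 16.4. All 3 stood highest in cluster 2, and the authors' deposited table gives them log2 fold changes there of 1.28, 1.23 and 1.21, and 1.18 for Rpl21. The smallest log2 fold changes in WT cluster 2 were those of Rplp0 (0.31), Rpl19 (0.36), Rps27rt (0.38) and Rpl23a (0.45) in the authors' deposited table. In WT cluster 1 the order was nearly the reverse, with Rpl5 (-1.27), Rpl35 (-1.24), Rpl4 (-1.23) and Rps15a (-1.21) lowest and Rplp0 (-0.35), Rpl19 (-0.42), Rpl36al (-0.46) and Rps27rt (-0.47) nearest to 0 in the authors' deposited table. Rpl39, which had the largest log2 fold change of any member in H3K36M cluster 2, had 30.5 UMIs per 10000 in WT cluster 2, against 18.4 and 22.1 in WT clusters 1 and 3, and Rps29 had 32.3, against 22.0 and 27.6.

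**Figure D3:**
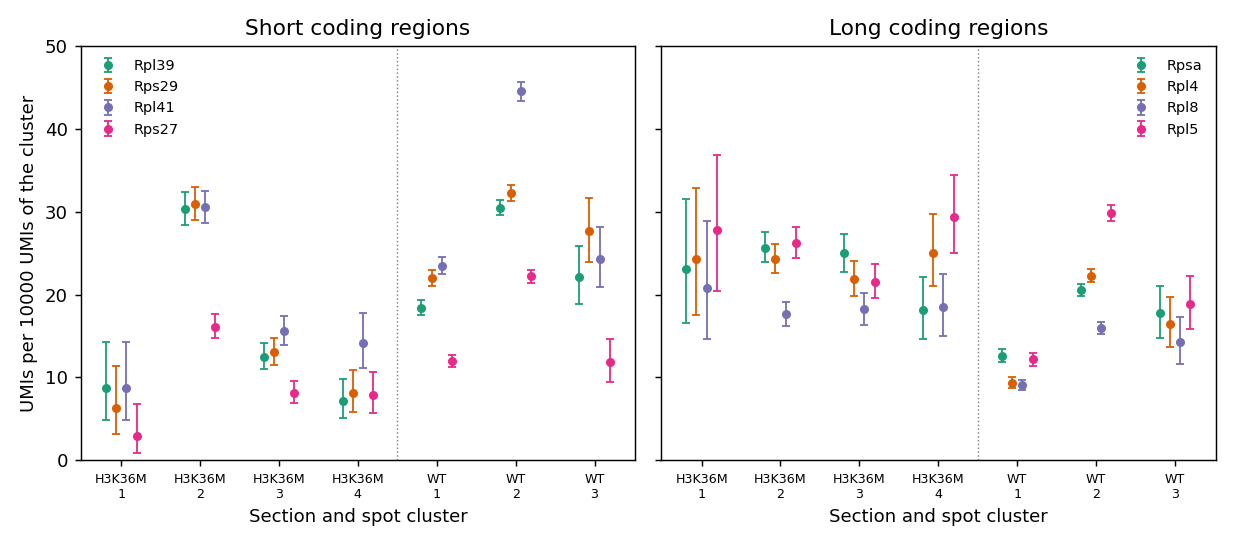
Level in UMIs per 10000 UMIs of each cluster (axis from 0) for 4 members with short coding regions on the left and 4 with long coding regions on the right, chosen among the named members. Points are clusters of 1 section per genotype and bars are exact 95% Poisson intervals for counting error. Rpl39, Rps29 and Rpl41 reach 30.3 to 30.9 in H3K36M cluster 2 and at most 15.6 in the other H3K36M clusters. In the WT section both short members, such as Rpl39 and Rpl41, and long ones, such as Rpl4, Rpl8 and Rpl5, differ clearly between clusters.

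Members with known roles outside bulk protein synthesis varied in the same frame. Rpl5 and Rpl11 bind Mdm2 under ribosomal stress as a complex with 5S ribosomal RNA. Rpl5 had its highest and Rpl11 its lowest H3K36M level in cluster 4, on only 156 and 76 UMIs. Rpl5 had 27.8, 26.2, 21.6 and 29.4 UMIs per 10000 in H3K36M clusters 1 to 4, and Rpl11 had 18.5, 17.8, 14.95 and 14.3. Neither was called in any H3K36M cluster in the authors' deposited table, which gives 1.23 for Rpl5 and 0.63 for Rpl11 in WT cluster 2, both called. Rps6 had 15.6, 18.6, 13.4 and 11.3 UMIs per 10000 in H3K36M clusters 1 to 4 and 8.58, 13.1 and 10.2 in WT clusters 1 to 3, so that H3K36M clusters 1 to 3 had values above that of the highest WT cluster, and the interval of cluster 2 alone was clear of it. Rpsa, also known as a laminin receptor, had 23.1, 25.7, 24.96 and 18.1 in H3K36M clusters 1 to 4 and 12.6, 20.5 and 17.7 in WT clusters 1 to 3. The intervals of Rpsa in H3K36M clusters 2 and 3 overlapped, unlike those of Rps6. Rps27a, which is made as a fusion with ubiquitin, had 18.5, 21.9, 17.5 and 14.3 in H3K36M clusters 1 to 4 and 12.2, 21.8 and 13.6 in WT clusters 1 to 3. Of the stalk, Rplp1 was highest in cluster 2 of each section, at 44.3 UMIs per 10000 in the H3K36M section and 49.4 in the WT section. The log2 fold changes of Rplp0, Rplp1 and Rplp2 in H3K36M cluster 2 were 0.49, 0.50 and 0.49 in the authors' deposited table, and in WT cluster 2 they were 0.31, 0.65 and 0.83.

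Large subunit genes, which are also the more numerous, gave more UMIs than small subunit genes in every cluster, and in WT clusters 1 and 2 by nearly the same ratio. Over the 75 shared members the ratio of large to small subunit UMIs was 1.36 (1.34 to 1.38) in the H3K36M section and 1.31 (1.30 to 1.32) in the WT section. By cluster it was 1.53 (1.39 to 1.68), 1.31 (1.29 to 1.33), 1.42 (1.39 to 1.46) and 1.495 (1.41 to 1.58) in H3K36M clusters 1 to 4, and 1.30, 1.31 and 1.36 (1.30 to 1.42) in WT clusters 1 to 3. H3K36M cluster 2 therefore had the ratio of WT clusters 1 and 2, and the other H3K36M clusters had higher ratios whose intervals did not reach it. Without cluster 2 the ratio of the H3K36M section was 1.44. By coding length, the ratio of H3K36M cluster 4 was above that of cluster 2 in each group, but only the middle 25 had intervals apart. Among the 25 members with the longest coding regions it was 1.63 (1.49 to 1.79), against 1.52 (1.47 to 1.57) in cluster 2. Among the 25 of middle length it was 1.498 (1.35 to 1.66), against 1.21 (1.17 to 1.25). Among the 25 shortest it was 1.34 (1.22 to 1.48), against 1.23 (1.20 to 1.27).

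Within the H3K36M section the members were ordered by the length of their coding region, an order that was weak or missing in the WT section. Coding lengths of the principal transcripts, without the stop codon, ran from 75 nucleotides (Rpl41) to 1257 (Rpl4), with a median of 453. Across the 75 members, coding length and the fold change of the authors' deposited table had Spearman correlations of 0.49, -0.60, 0.53 and 0.45 in H3K36M clusters 1 to 4. Across the 81 WT members they were -0.07, 0.05 and 0.18 in WT clusters 1 to 3. These are descriptions across genes that share libraries, and cluster fold changes of 1 section are not independent of each other. For listed genes outside the members, without mitochondrially encoded ones, the same correlations were 0.03, -0.15, 0.15 and 0.01 in H3K36M clusters 1 to 4 (n = 209).

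Sorted by coding length into 3 groups of 25, all groups differed between H3K36M clusters, the shortest members most. Median log2 fold changes, shortest to longest group, were 0.72, 0.48 and 0.41 in H3K36M cluster 2 in the authors' deposited table. They were -0.54, -0.35 and -0.28 in cluster 3 and -0.79, -0.68 and -0.48 in cluster 4. At a deposited p under 0.05 in the authors' deposited table, 24 of the 25 with the shortest coding regions (75 to 405 nucleotides), 17 of the middle 25 (405 to 564) and 14 of the 25 with the longest (576 to 1257) were higher in H3K36M cluster 2. Lower calls in the authors' deposited table numbered 21, 10 and 7 of 25 in H3K36M cluster 3 and 16, 10 and 4 in cluster 4. Set against the 33.9% of all listed genes called higher in cluster 2 and the 34.6% and 36.2% called lower in clusters 3 and 4, the shortest group stood furthest above that share, and the middle group of clusters 3 and 4 and the longest group of cluster 3 were near it. Other shared genes of the 3 length ranges had H3K36M cluster 4 medians of -0.67, -0.29 and -0.22, so the shortest were lowest there too. Their medians were -0.19, -0.05 and -0.27 in cluster 2 and -0.10, -0.21 and -0.07 in cluster 3. The 25 shortest members gave 29.97%, 38.4%, 33.6% and 32.0% of the ribosomal protein UMIs of H3K36M clusters 1 to 4, and 41.9%, 41.7% and 40.1% of those of WT clusters 1 to 3. Every H3K36M cluster thus had a lower share from short members than every WT cluster. The 25 longest members gave 39.2%, 32.1%, 35.7% and 38.6% in H3K36M clusters 1 to 4 and 29.9%, 29.7% and 30.6% in WT clusters 1 to 3. The mitochondrial share and the depth of the clusters also differed between the sections, and their part in this order was not tested.

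**Figure D4:**
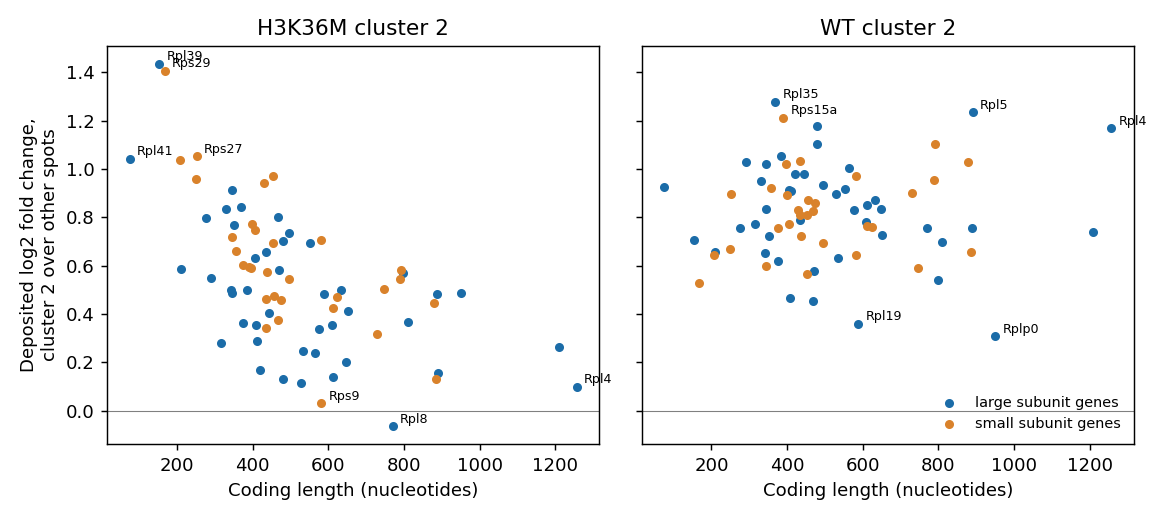
Deposited log2 fold change in cluster 2 of each section (cluster over all other clustered spots) against the coding length of each member in nucleotides, with large and small subunit genes in different colours. Points are genes, and each panel holds the 75 members in both tables. Fold changes fall with coding length in the H3K36M panel (Spearman -0.60) and show no such order in the WT panel. The WT coefficient (0.05) is over all 81 WT members, of which 6 are not drawn.

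Set against the WT section, the H3K36M section had similar overall levels of ribosomal protein transcripts but another balance among them. The median log2 ratio of section levels, H3K36M over WT, was 0.02 over the 75 members (0.07 for large and 0.01 for small subunit genes), against -0.01 for the 209 other genes in both tables. The members lay close together, with quartiles at -0.13 and 0.20 and a range of -0.63 to 0.51, where the other genes ranged from -3.47 to 1.78. A log2 ratio of at least 0.5 in size was reached upwards by 1 of 75 members and downwards by 3, where 15.1% and 19% of the 284 shared genes reached it. Counting intervals lay above equal levels for 35 members, below for 19 and held it for 21, and over all 284 shared genes for 117, 106 and 61, so the members' share above was near that of all genes. The medians depended on which spots were set side by side. Without H3K36M cluster 2 the median over all members was -0.27, with H3K36M cluster 3 against WT cluster 1 it was 0.36, and scaling by the UMIs of shared genes alone moved every gene up by 0.20. Like the shares of all UMIs, the ratios of section levels rest on the recovered UMI totals of each section.

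The 5 members with the highest ratios were all among the 25 with the longest coding regions. Rps6 had 16.1 UMIs per 10000 (15.1 to 17.2) in the H3K36M section and 11.3 (10.9 to 11.7) in the WT section, a ratio of 1.42 (1.32 to 1.53). Rpl10a, of the stalk beside the tRNA exit site, had 16.5 and 11.7, a ratio of 1.41 (1.31 to 1.52). Rpsa had 24.6 and 17.5, a ratio of 1.41 (1.33 to 1.499). Rpl4 (ratio 1.36) and Rpl8 (ratio 1.35) followed, and all 5 stayed above equal levels under each other weighting and choice of clusters tried. In cluster 2 of each section alone, though, the log2 ratio was 0.12 for Rpl4 (0.45 over the sections) and 0.14 for Rpl8 (0.43). The other bases, UMIs of shared genes and UMIs without mitochondrially encoded ones, moved every gene up by 0.20 and 0.03. They could therefore not bring these 5 below equal levels. Their counting intervals all exclude equal levels, which says nothing of the spread between mice.

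Of the 5 members with the lowest ratios, 4 were among the 25 with the shortest coding regions. Rpl41 had 23.3 UMIs per 10000 (22.0 to 24.5) in the H3K36M section and 35.98 (35.20 to 36.76) in the WT section, a ratio of 0.647 (0.610 to 0.685). Rps27 had 12.2 and 18.0, a ratio of 0.680 (0.626 to 0.737). Rps29 had 22.0 and 28.3, a ratio of 0.779 (0.732 to 0.827). Rps2, which helps to guide messenger RNA into the small subunit, was the other, with 13.9 and 20.7 and a ratio of 0.672 (0.622 to 0.724) at a coding length of 879 nucleotides. These 4 genes stayed below equal levels under each other scaling and choice of clusters tried, though Rps2 came to a log2 ratio of -0.07 with H3K36M cluster 3 against WT cluster 1 and Rps29 to -0.06 in cluster 2 alone. Rpl35 had a ratio of 0.757 (0.681 to 0.841), and its log2 ratio turned to 0.10 with H3K36M cluster 3 against WT cluster 1.

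Over all 75 members, coding length and the log2 ratio of H3K36M over WT were correlated at 0.65 (Spearman; Pearson 0.61), against a Spearman coefficient of 0.18 for 197 other shared nuclear genes. With the full length of the same transcripts in place of coding length the Spearman coefficient was 0.32, and in cluster 2 of each section alone it was 0.47 with coding length. The median log2 ratio was -0.16 for the 25 members with the shortest coding regions (4 higher and 21 lower in the H3K36M section), 0.13 for the middle 25 (17 higher, 8 lower) and 0.24 for the 25 with the longest (21 higher, 4 lower). The gap between short and long members was present in cluster 2 of each section alone, with medians of -0.14 for the shortest and 0.07 for the longest 25, and without H3K36M cluster 2, with -0.60 and 0.02. With the UMIs of shared genes as the base the medians were 0.04 and 0.44, and the sign of the shortest group turned. That base moves every gene by the same amount, so it could not change the gap. That sign also turned with H3K36M cluster 3 against WT cluster 1, where the medians were 0.10 for the shortest and 0.54 for the longest 25. Other shared genes with coding regions in the 3 length ranges had medians of -0.63 (n = 41), 0.12 (n = 27) and 0.01 (n = 67). Members with short coding regions were also the more abundant ones, with a Spearman correlation of -0.38 between coding length and WT level and of -0.45 between WT level and the log2 ratio.

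**Figure D5:**
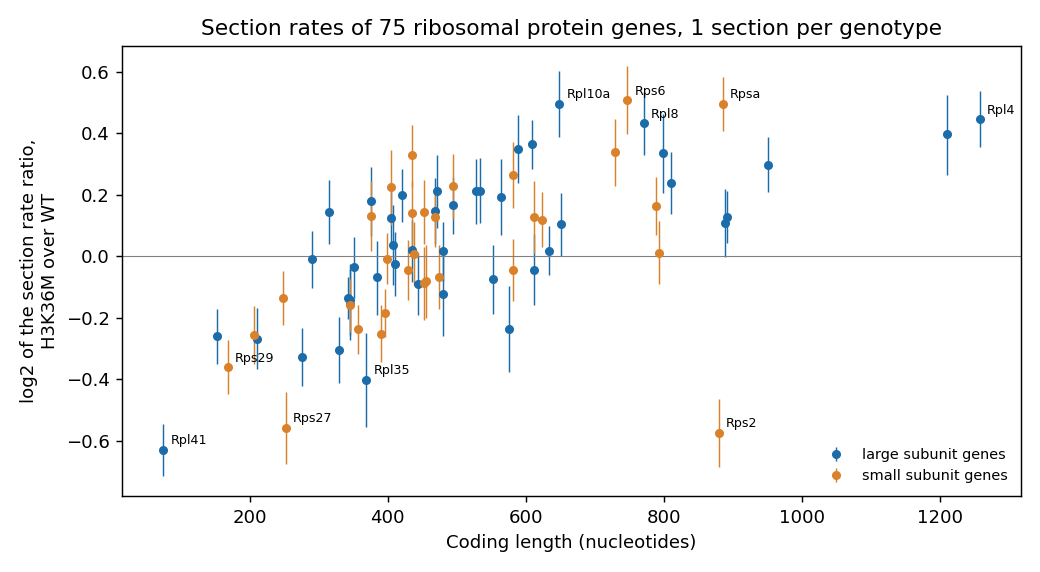
Log2 of the ratio of section levels, H3K36M over WT, for the 75 shared members against coding length in nucleotides. Points are genes of 1 section per genotype, coloured by subunit, and bars are exact 95% intervals for counting error. Short members such as Rpl41, Rps27 and Rps29 lie below 0 and long ones such as Rpl4, Rpsa and Rps6 above it, with Rps2 low despite its length.

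The 6 members listed in the WT section alone were low there. Rpl36a had 4.91 UMIs per 10000, Rpl10, which joins the large subunit late, had 5.21, and the paralogs and copies Rps27l, Rpl22l1, Rpl36al and Rps27rt had 3.13, 5.29, 6.52 and 1.64. A cluster level of 7.24 UMIs per 10000 was needed to enter the H3K36M table, and of the 6 only Rpl36al passed that value in any WT cluster, with 7.41 in WT cluster 2. For the other 5, absence from the H3K36M table is therefore no measure of a lower level. The member with the lowest level in the H3K36M table was Rpl35, at 7.36. In the WT section 5 of the 6 followed the other members in cluster 2, where the authors' deposited table gives them from 0.51 (Rpl36al) to 1.15 (Rpl10) on the log2 scale, all called. Rps27l and Rpl22l1, paralogs of Rps27 and Rpl22, had 1.14 and 0.63 in the authors' deposited table. Rps27rt and Rps27 differ little in sequence, so reads may be divided between them.

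Proteins of the ribosome whose names fall outside the rule gave a mixed picture. Fau, made as a fusion of a ubiquitin-like protein with a small subunit protein, had 0.01 without a call in H3K36M cluster 2 and 0.63 with a call in WT cluster 2, by the log2 fold changes of the authors' deposited table. Rack1, a scaffold on the small subunit, had 0.29 there without a call in H3K36M cluster 2 and 0.56 with a call in WT cluster 2. The section ratios, H3K36M over WT, were 1.20 (1.11 to 1.29) for Fau and 1.31 (1.22 to 1.41) for Rack1.

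Translation factors and related genes gave the following counts in the clusters richest in ribosomal protein transcripts. Of a list of 47, 13 were in the H3K36M table and 29 in the WT table. In WT cluster 2, 20 of the 29 were higher and 1 lower in the authors' deposited table, while in H3K36M cluster 2, 5 of the 13 were higher and 1 lower. Over all listed genes 43% were called higher in WT cluster 2 and 33.9% in H3K36M cluster 2, so the H3K36M count was near the share of all genes, and the lists differ in length. Eef1a1, which brings aminoacyl-tRNA to the ribosome, had 0.79 in H3K36M cluster 2 and 0.69 in WT cluster 2, and Tpt1 had 0.80 and 0.66 in the authors' deposited table. Eef2, which moves the ribosome along, had -0.09 without a call in H3K36M cluster 2 and 0.59 in WT cluster 2. Eif1, a factor of start codon choice, was lower in H3K36M cluster 2 (-0.52) and higher in H3K36M cluster 4 (1.34) in the authors' deposited table, where Ubb (1.03), a polyubiquitin gene, was also called higher. Pabpc1, the poly(A)-binding protein, had opposite signs, with 1.63 in H3K36M cluster 2 and -0.45 in WT cluster 2 in the authors' deposited table, both called. The difference between the sections could not be tested. In section levels, Eef2 had a ratio of 1.60 (1.48 to 1.73) and Ncl, the nucleolar protein nucleolin, of 2.04 (1.77 to 2.33), H3K36M over WT, while Tpt1 had 0.980 (0.927 to 1.04).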

How the data were processed

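Visium libraries of 2 tongue sections, 1 per genotype, were grouped by title. Per the submitters' processing notes, Space Ranger and the mouse build GRCm38 (mm10) were used. The sources used here name no version, annotation or clustering settings. The metrics table, as deposited, holds a count of spots and reads, each quality measure as a fraction, and medians per spot. For each gene and cluster the deposited tables list an average, which is a signal never below 0, with a deposited p-value and a deposited log2 fold change, per the file headers.

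The deposited averages were whole multiples of 1 step per cluster (100% of values within 0.01 of a whole number of UMIs), and each deposited log2 fold change equalled that of UMIs plus 1 over summed size factors plus 1, cluster over all other clustered spots. UMIs were taken from this. The median UMIs per spot it implies (1380.5 in H3K36M, 5027 in WT) differ from the deposited medians (763.5 and 4899), so totals and levels rest on this reading.

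Spots are not replicates, so no test was run, and calls are the authors' deposited p-values under 0.05. Intervals are exact (Poisson, binomial or conditional) at 95%. Calculations were checked on simulated tables. Coding lengths came from GENCODE M21, as the principal transcript of each gene, and ties at 405 nucleotides were divided by name. Named genes were the 4 highest and 4 lowest members by fold change per cluster, the 4 highest by level, the 5 highest and 5 lowest by section ratio, members with known roles, members in 1 table, members called against the trend, and listed genes of the translation list; some of these are not reported here. Other members, among them those with a printed sequence, were chosen after their values were seen. The members and gene lists were chosen with earlier results of these data known. Alternatives were other thresholds, denominators, gene sets and pairs of clusters, and, added after seeing the data, the H3K36M section without cluster 2 and all settings of the coding length comparison. Python 3.11.15, numpy 2.4.6, pandas 2.3.3, scipy 1.17.1 and matplotlib 3.10.9 were used.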

Additional observations from a re-analysis of the deposited data

How the results depend on the processing

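Medians of the deposited fold changes of large and small subunit genes kept their sign under all 42 alternatives tried, with -0.61 in place of -0.46 for small subunit genes of H3K36M cluster 1 among members with an average of at least 3. Of 28 counts of calls, 24 stayed within 1.5 times the value given, among them 37 higher calls in H3K36M cluster 2 once fold changes under 0.5 (log2) were left out, and 20 lower calls in H3K36M cluster 4 at a deposited p under 0.01. Part of these alternatives could not have moved an H3K36M value. All 75 H3K36M members are in both tables and none is among the paralogs and copies. Limiting the members to either set therefore left the H3K36M medians and counts of calls unchanged. At a deposited p under 0.01 the lower calls were 1 in H3K36M cluster 1 and 0 in WT cluster 3, where they were also 0 among members in both tables, and a log2 fold change of at least 0.5 in size left 22 in H3K36M cluster 3. As a share of the UMIs of genes in both tables, members took 29.8% of the H3K36M section (32.4%, 32.9%, 24.3% and 30.6% of clusters 1 to 4) and 25.6% of the WT section (16.6%, 31.7% and 23.7% of clusters 1 to 3). Without mitochondrially encoded UMIs they took 14.0% of the H3K36M section, 16.7% and 11.3% of its clusters 2 and 3, 13.6% of the WT section and 9.09%, 16.5% and 12.5% of WT clusters 1 to 3. Without H3K36M cluster 2 they took 10.8% of that section, and its ratio of large to small subunit UMIs was 1.44. Without the 3 members with most UMIs in either section that ratio was 1.26 in the H3K36M section (1.21, 1.33 and 1.41 in clusters 2 to 4) and 1.20 in the WT section (1.18, 1.21 and 1.26 in clusters 1 to 3). With all WT members it was 1.34 in the WT section and 1.33 and 1.34 in clusters 1 and 2.

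The median log2 ratio of H3K36M over WT (all, large and small subunit members) was 0.22, 0.27 and 0.21 with the UMIs of shared genes as the base, 0.36, 0.38 and 0.32 with H3K36M cluster 3 against WT cluster 1, and -0.27, -0.18 and -0.33 without H3K36M cluster 2. With equal weight per cluster it was -0.069 over all and -0.11 over small subunit members. Of the 10 members named by this ratio, only Rpl35 changed sign, to 0.10 with H3K36M cluster 3 against WT cluster 1; the cause was not tested. The Spearman correlation of coding length with the ratio was 0.32 with full transcript length and 0.47 in cluster 2 of each section alone. No paired analysis was possible because there is 1 section per genotype and no replicate number. H3K36M cluster 1 and WT cluster 3 hold the fewest UMIs, which limits what could be called in them.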
